A study of Sus scrofa with 12 samples.

Results

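Complexes III and IV of the respiratory chain, the cytochrome c that carries electrons between them, and the ATP synthase form the final steps of oxidative phosphorylation in the mitochondrial inner membrane. Complex III takes electrons from ubiquinol, complex IV passes them to oxygen, both move protons across the membrane, and the ATP synthase uses the returning protons to make ATP. In skeletal muscle their abundance goes with the oxidative capacity of the fibres, and several subunits of complex IV are made from alternative genes, of which one form prevails in heart and skeletal muscle and the other in most other tissues.

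The genes described are the protein-coding genes of the pig genome (Sscrofa11.1) whose symbols begin with UQCR, COX4I, COX5, COX6, COX7, COX8 or ATP5, with *CYC1* and *CYCS*. This rule gave 28 of 28224 annotated genes: 2 subunits of complex III, 8 of complex IV, 15 of the ATP synthase, the cytochrome c gene *CYCS*, and *ATP5S* and *ATP5SL*, which carry the ATP5 prefix but do not encode subunits of the enzyme. No gene has the symbol *CYC1* or one beginning with COX4I in this annotation. Another 17 genes that the annotation names as subunits only in their product description, among them cytochrome c1, *COX4I1* and *COX6A2*, were not chosen by the rule. They were added after the data were seen, as companions, and are named here by the subunit.

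Levels were measured by RNA sequencing of *Longissimus dorsi* (loin) muscle of 12 male Iberian pigs, 1 library per animal, all castrated and fattened free range on acorns and grass. The 6 Tough animals had high and the 6 Tender animals low breeding values for the shear force of cooked loin, and their shear force ranged from 7.32 to 10.63 kg/cm2 and from 2.18 to 3.43 kg/cm2. The paper also reports less intramuscular fat in the Tough than in the Tender group, which there included an animal not used here. Close relatives were avoided when the animals were chosen, so the spread within a group is that between separate animals, and neither the fattening batch nor the sequencing lane of an animal is given. The values are FPKM, fragments scaled both to the length of the transcript and to the mapped fragments of the library, so that levels can be compared between genes per length. Over 9124 genes with a mean above 0.5 FPKM the groups were compared with limma, and a call required an unadjusted p not above 0.05, an adjusted p not above 0.10 and at least a 1.5-fold difference.

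The labelled tissue was checked against 6 myofibre markers, with the values by shared introns that are explained further on. *DES* (desmin) had a mean of 1900 FPKM in the Tough and 2920 FPKM in the Tender group, *MYOT* (myotilin) of 397 and 501 FPKM, *ACTN2* (alpha-actinin 2) of 399 and 497 FPKM, and *TTN* (titin) of 87.5 and 69.9 FPKM. *CKM* (muscle creatine kinase), however, was listed at 0 in 2 libraries of each group, and *MB* is not a symbol of this annotation. *DES* reached an unadjusted p of 0.05 with a log2 fold change of -0.59, but by exonic bases its log2 fold change was 2.07 (standard error 3.22) and it did not, and it was called under neither assignment. In bulk muscle, fewer cells of a type and less RNA per cell cannot be told apart.

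The 3 genes of the c subunit, which forms the rotating ring of the ATP synthase, show how far members of a family differ in sequence. *ATP5G1* (chr12:25110540-25113481, plus strand), *ATP5G2* (chr5:18871025-18879933, minus strand) and *ATP5G3* (chr15:81091037-81094297, minus strand) encode the same mature subunit behind different import sequences. The last 228 bases of their coding sequences, read from Sscrofa11.1, are given 5′ to 3′ with capitals at the positions where the genes do not all agree.
ATP5G1: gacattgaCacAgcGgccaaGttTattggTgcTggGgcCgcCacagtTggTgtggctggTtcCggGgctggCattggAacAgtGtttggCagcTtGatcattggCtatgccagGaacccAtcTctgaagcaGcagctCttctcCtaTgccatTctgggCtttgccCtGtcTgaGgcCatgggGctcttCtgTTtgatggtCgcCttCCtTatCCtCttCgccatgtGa
ATP5G2: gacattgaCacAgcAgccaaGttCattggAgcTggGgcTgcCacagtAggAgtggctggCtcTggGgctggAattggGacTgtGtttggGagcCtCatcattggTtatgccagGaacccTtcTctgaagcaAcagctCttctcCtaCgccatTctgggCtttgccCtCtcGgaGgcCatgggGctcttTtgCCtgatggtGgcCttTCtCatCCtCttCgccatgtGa
ATP5G3: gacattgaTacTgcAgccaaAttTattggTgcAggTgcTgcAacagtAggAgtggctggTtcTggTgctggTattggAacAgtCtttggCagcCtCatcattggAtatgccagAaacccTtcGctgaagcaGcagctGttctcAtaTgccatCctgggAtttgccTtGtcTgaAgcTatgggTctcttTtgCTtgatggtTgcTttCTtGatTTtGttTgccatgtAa
Between *ATP5G1* and *ATP5G2* 26 of the 228 bases differed (88.6% identity), between *ATP5G1* and *ATP5G3* 39 (82.9%) and between *ATP5G2* and *ATP5G3* 41 (82.0%). In these pairs 25, 36 and 38 codons differed, none with a change of residue, and the stop codon was among those that differed in both pairs with *ATP5G3*. In each pair most of the differing bases lay at the third codon position. The longest run shared by a pair was 20, 14 and 17 bases, against a read length of 76 bases in the labels.

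The members were among the most abundant transcripts of the loin. By the assignment described further on, which gives every member a value in every library, their mean levels ran from 2.16 FPKM (*ATP5S*) to 884 FPKM (*COX8H*), with a median over the members of 136 FPKM against 3.43 FPKM over all genes tested. Of the 28 members, 21 lay among the highest 5% of genes by mean level. The read depth estimated by Cufflinks, rescaled to the exons of the gene, for the 22 members whose values were equal under the 2 assignments described further on ran from 13.1 (*ATP5S*) to 9620 (*COX8H*) over libraries, and the files hold no read counts from which counting error could be computed.

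**Figure D1:**
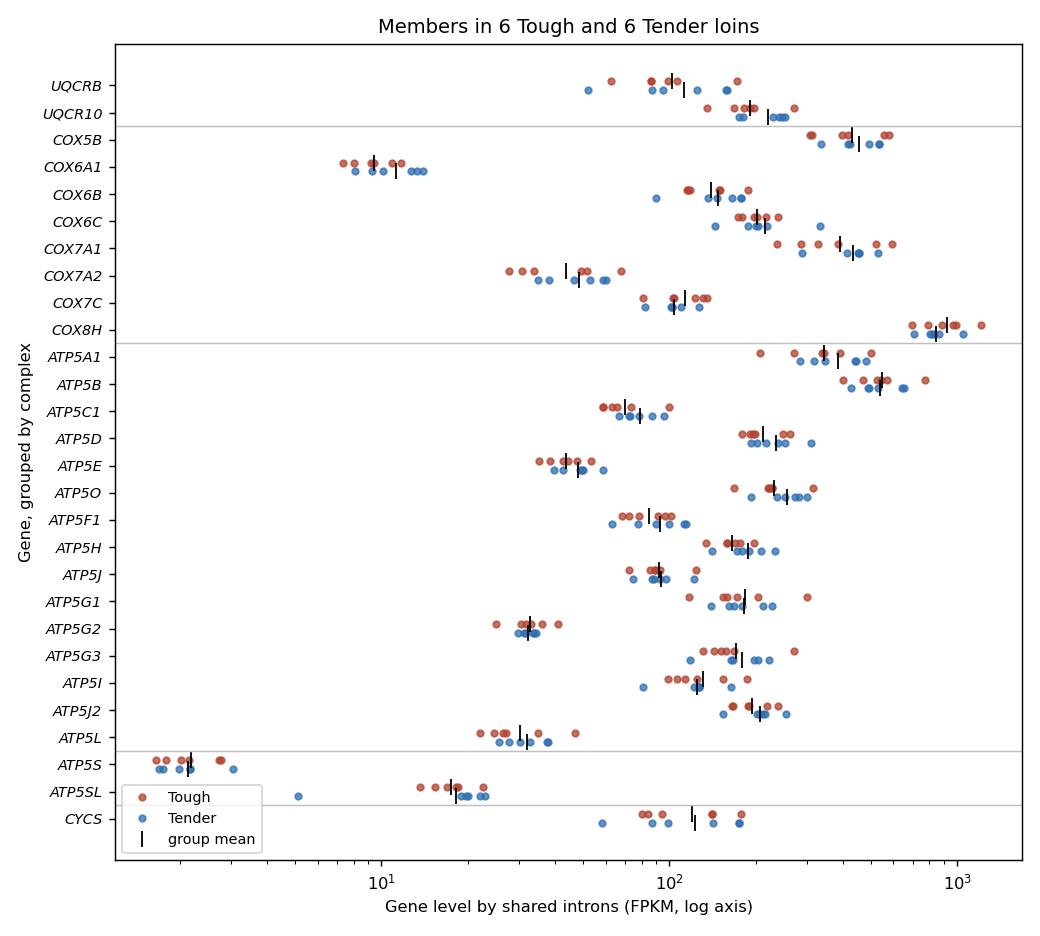
FPKM by shared introns (log axis) of the 28 members in the 6 Tough and 6 Tender libraries, with 1 point per library and a tick at each group mean; grey lines separate complex III, complex IV, the ATP synthase, the 2 genes that are not subunits and cytochrome c. The points of both groups overlap for every member, and the members span from 2.16 FPKM (*ATP5S*) to 884 FPKM (*COX8H*).

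No member was called between Tough and Tender loins, and none reached an unadjusted p of 0.05. The paper, which used Cuffdiff and included an additional Tender animal, did report differentially expressed genes between its groups. Over all 9124 genes tested, 0 (0%) were called by limma with Benjamini-Hochberg adjustment and 226 (2.48%) had an unadjusted p of at most 0.05, 67 of them higher in the Tough and 159 (1.74%) higher in the Tender group. This balance depended on the scaling and on single libraries, with 137 of 280 higher in Tough loins after median-of-ratios scaling and 251 of 412 without Tender 4. The count was 369 without Tough 1 (57 higher in Tough), 374 without Tender 1 (77) and 147 without Tender 5 (61). The adjusted p of each of the 28 members was 1.0. The log2 fold change was below 0, towards higher levels in the Tender group, for 19 of 28 members, against 60.1% of all genes tested, and the median was -0.11 over the members and -0.04 over all genes. The Tough and Tender values overlapped for all 28 members, and 0.0986% of all genes tested had groups that did not overlap.

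Under this assignment the 28 members fell into a set with small differences and low standard errors and a set with large differences and high standard errors. For 22 members the log2 fold change lay between -0.23 and 0.11 with standard errors from 0.12 to 0.30, and the smallest unadjusted p was 0.183. For the other 6 members the log2 fold change lay between -1.42 (*ATP5G3*) and 4.02 (*COX7C*), with a standard error of up to 2.44 (*COX7A1*). These 6 members, *UQCRB*, *COX7A1*, *COX7C*, *ATP5G1*, *ATP5G3* and *ATP5SL*, are those listed at 0 FPKM in at least 1 library.

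*COX7C*, a small structural subunit of complex IV, shows the pattern most clearly. Its level was 135 FPKM in Tough 1, 104 FPKM in Tough 2, 123 FPKM in Tough 3, 131 FPKM in Tough 5 and 101 FPKM in Tender 2, and it was listed at 0 FPKM in Tough 4, Tough 6 and the other 5 Tender libraries. In these data its level was thus either about 100 FPKM or more, or 0, and both kinds of value occurred in both groups. The log2 fold change was 4.02 with a standard error of 1.90 and an unadjusted p of 0.0555 in limma, the smallest p of the members.

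In each of the 7 libraries where *COX7C* (chr2:94345436-94347709) is listed at 0, the assembly holds a transcript that has the introns of *COX7C* but runs on beyond the annotated gene. These transcripts were 1954 to 3315 bases long, of which 13.6% to 23.0% lay in *COX7C* exons, below the 50% at which a transcript was assigned to a gene. The same held for the other members listed at 0. *COX7A1*, listed at 0 in Tough 4, Tender 3, Tender 4 and Tender 6, had transcripts of 450 to 3263 bases with 10.1% to 45.1% in its exons, and *UQCRB*, listed at 0 in Tough 2, Tough 6 and Tender 1, transcripts of 870 to 4759 bases with 11.7% to 48.5%. *ATP5G1* in Tender 3, *ATP5G3* in Tough 6 and *ATP5SL* in Tough 1 had 1 such transcript each, with 27.3%, 41.7% and 37.9% of its bases in the gene. In all, 17 of the 336 values of the members were 0, 7 in Tough and 10 in Tender libraries. Abundant genes in general shared this: of 650 genes above 50 FPKM, 25.7% were listed at 0 in at least 1 library, as were 5 of the 21 members above that level.

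When a transcript was given to the gene with which it shares most introns, a choice made after the zeros were seen, all 28 members had a value in all 12 libraries. *COX7C* then had 103 FPKM in Tough 4, 80.7 FPKM in Tough 6 and from 82.3 to 127 FPKM in the Tender group, and its group means were 113 ± 20.5 FPKM (SD, n = 6) in Tough and 104 ± 14.6 FPKM (n = 6) in Tender loins. Its log2 fold change became 0.10 (standard error 0.15, limma). *COX7A1* moved from 2.96 (standard error 2.44) to -0.19 (standard error 0.23), *ATP5G1* from 1.38 to -0.02, *ATP5G3* from -1.42 to -0.08, *UQCRB* from -1.29 to -0.11 and *ATP5SL* from -0.85 to 0.07. The values of the other 22 members were equal within 1% under both assignments, although a stricter rule of 90% of exonic bases moved some of them, *UQCR10* to -1.68, *COX7A2* to -1.22, *COX8H* to -1.63 and *ATP5G2* to -1.40 on the log2 scale. Because extended transcripts count with their whole length, levels by shared introns include reads outside the annotated gene.

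**Figure D2:**
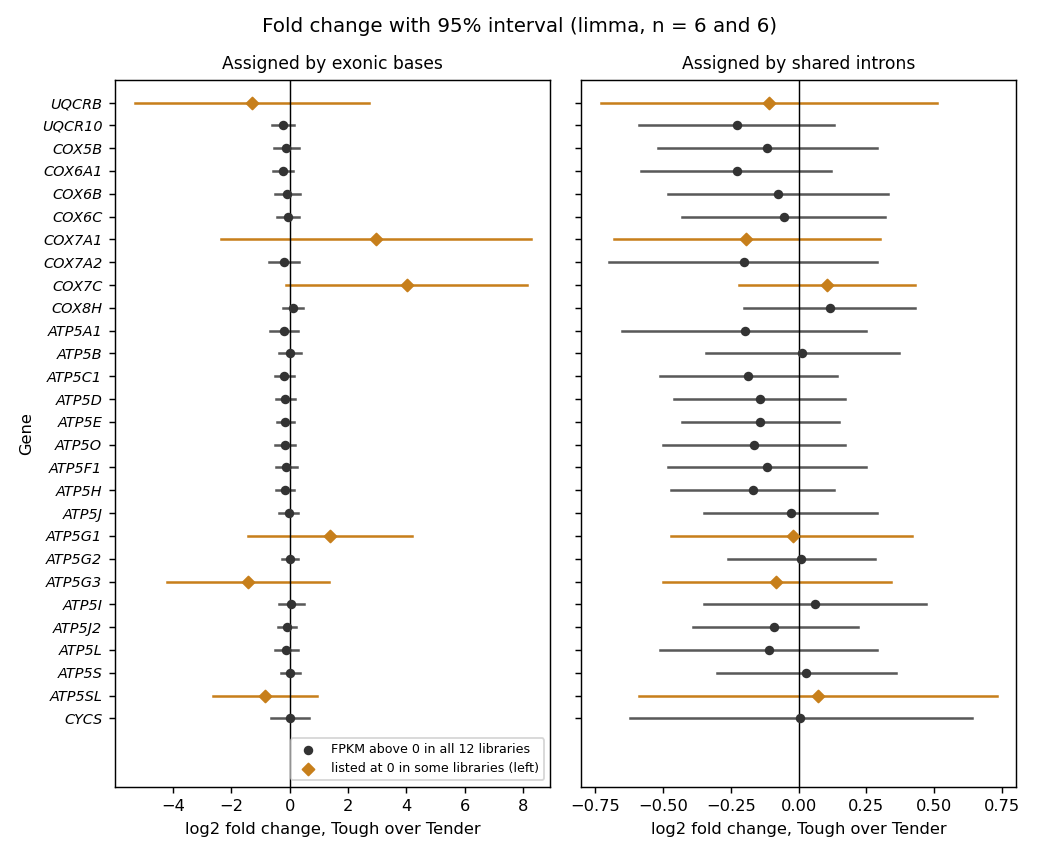
Log2 fold change, Tough over Tender, with its 95% interval from limma (6 and 6 libraries) for the 28 members, on the left with transcripts assigned by exonic bases and on the right by shared introns; the horizontal axes differ in range. The 6 members listed at 0 in some libraries (orange) have log2 fold changes from -1.42 to 4.02 on the left and lie between -0.19 and 0.11 on the right.

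By shared introns the members differed little between the groups. The 28 log2 fold changes lay between -0.23 (*COX6A1*) and 0.11 (*COX8H*), 20 of them below 0 against 60.7% of the 9339 genes tested under this assignment, with a median of -0.10 against -0.04 over all genes. None was called and none reached an unadjusted p of 0.05, against 0 (0%) and 237 (2.54%) of all genes. The 95% interval of each member lay within a 2-fold difference in either direction, and the widest bounds were 0.601-fold (*UQCRB*) and 1.66-fold (*ATP5SL*). These intervals do not show that the levels were equal, since each of them also holds differences other than 0.

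Of complex III the rule held *UQCR10* and *UQCRB*, small subunits of the complex. *UQCR10*, the more abundant, had 271, 181, 190, 197, 168 and 135 FPKM in Tough 1 to Tough 6 and 229, 180, 175, 252, 240 and 247 FPKM in Tender 1 to Tender 6. Of the 6 Tough libraries only Tough 1 exceeded 200 FPKM, against 4 of the 6 Tender libraries, but the groups overlapped. The log2 fold change was -0.23 (standard error 0.17), with a 95% interval from -0.59 to 0.13. *UQCRB* had 102 ± 37.5 FPKM (n = 6) in Tough and 112 ± 41.9 FPKM (n = 6) in Tender loins by shared introns, and its log2 fold change was -0.11 (standard error 0.29).

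Of the tested companions of complex III, only *UQCRH* lay outside the range of the members. The core proteins *UQCRC1* and *UQCRC2*, the cytochrome c1 gene *CYC1*, the iron-sulphur protein *UQCRFS1*, the hinge protein *UQCRH* and the subunit *UQCRQ* had log2 fold changes by shared introns of -0.08, -0.07, -0.09, -0.01, -0.27 and -0.10. *UQCRH* had the smallest unadjusted p of these, 0.161 in limma. *UQCR11* was listed at 0 in all 12 libraries under both assignments, while counting every exonic base in its exons gave 17.1 to 337 FPKM, so no comparison is given for it.

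Complex IV held the most abundant member, *COX8H*, the heart and muscle form of subunit VIII. It had 1210, 790, 693, 968, 991 and 883 FPKM in Tough 1 to Tough 6 and 805, 1050, 865, 708, 827 and 819 FPKM in Tender 1 to Tender 6. The highest value was in a Tough and the lowest also in a Tough library. Its log2 fold change of 0.11 (standard error 0.15) was the highest of the members by shared introns, with a 95% interval from -0.20 to 0.43.

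*COX7A1*, the heart and muscle form of subunit VIIa, had 594, 237, 329, 523, 384 and 286 FPKM in Tough 1 to Tough 6 and 456, 450, 532, 414, 456 and 288 FPKM in Tender 1 to Tender 6 by shared introns. *COX7A2*, the form of most tissues, had 68.0, 33.8, 49.5, 51.8, 30.7 and 27.8 FPKM and 38.1, 34.9, 46.8, 60.3, 53.1 and 58.9 FPKM in the same order. Both forms were highest in Tough 1. The log2 fold changes were -0.19 (standard error 0.23) and -0.20 (standard error 0.23).

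*COX6A1*, the form of subunit VIa in most tissues, was the lowest subunit gene of the rule, with 10.9, 8.03, 9.23, 9.45, 11.7 and 7.34 FPKM in Tough 1 to Tough 6 and 8.06, 13.3, 13.9, 9.28, 12.7 and 10.1 FPKM in Tender 1 to Tender 6. The 3 highest values were all in the Tender group, and the log2 fold change of -0.23 (standard error 0.16) was the lowest of the members by shared introns. *COX6B*, a subunit on the side of the intermembrane space, had 188, 116, 149, 150, 115 and 118 FPKM in Tough and 136, 89.5, 165, 177, 177 and 146 FPKM in Tender libraries, which gave -0.08 on the log2 scale (standard error 0.19). *COX5B* and *COX6C* had mean levels of 442 and 208 FPKM over the 12 libraries and log2 fold changes of -0.12 and -0.06.

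The most abundant member of the ATP synthase was *ATP5B*, the catalytic beta subunit of the F1 head. It had 774, 570, 545, 472, 524 and 402 FPKM in Tough 1 to Tough 6 and 491, 492, 426, 532, 652 and 640 FPKM in Tender 1 to Tender 6. The group means, 548 ± 126 and 539 ± 89.9 FPKM (SD, n = 6 each), differed by far less than the spread within a group, and the log2 fold change was 0.01 with a 95% interval from -0.34 to 0.37. *ATP5A1*, the alpha subunit, had means of 343 and 386 FPKM, a difference of -0.20 on the log2 scale (standard error 0.21).

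*ATP5C1*, the gamma subunit that turns inside the head, had 99.3, 65.8, 73.8, 59.0, 58.8 and 63.2 FPKM in Tough 1 to Tough 6 and 73.1, 66.7, 72.2, 78.4, 86.7 and 95.8 FPKM in Tender 1 to Tender 6. Tough 1 held its highest value, and the other Tough libraries lay between 58.8 and 73.8 FPKM. Over all 12 libraries it differed by -0.18 on the log2 scale (standard error 0.15). Without Tough 1, *ATP5C1* and *UQCR10* had an unadjusted p of at most 0.05, both higher in the Tender group, and neither was called. In that fit 369 of all 9076 genes tested were at this threshold, only 57 of them higher in the Tough group. The delta and epsilon subunits *ATP5D* and *ATP5E* had log2 fold changes of -0.14 each.

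*ATP5H*, subunit d of the peripheral stalk that holds the head in place, had 176, 158, 169, 196, 134 and 158 FPKM in Tough and 208, 140, 179, 171, 189 and 232 FPKM in Tender libraries, which gave -0.17 on the log2 scale (standard error 0.14). The other stalk members, *ATP5O*, *ATP5F1* and *ATP5J*, had log2 fold changes of -0.16, -0.11 and -0.03. *ATP5I*, subunit e of the membrane part, had 186, 113, 154, 125, 106 and 99.2 FPKM in Tough and 127, 80.8, 122, 164, 127 and 127 FPKM in Tender libraries, which gave 0.06 on the log2 scale (standard error 0.19). *ATP5J2* and *ATP5L*, the f and g subunits, had log2 fold changes of -0.09 and -0.11.

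The electron carrier *CYCS* had 141, 140, 177, 94.6, 80.5 and 84.3 FPKM in Tough 1 to Tough 6 and 142, 58.4, 87.0, 174, 99.1 and 175 FPKM in Tender 1 to Tender 6. Its levels spread over 3.03-fold between libraries, from 80.5 to 177 FPKM in Tough and from 58.4 to 175 FPKM in Tender loins, and the log2 fold change was 0.01 with a standard error of 0.29. The paper lists *CYCS* within its own set of differentially expressed genes, obtained by Cuffdiff with an additional animal. *ATP5S*, known as coupling factor B, was the lowest member, with 2.18 ± 0.474 FPKM (n = 6) in Tough and 2.13 ± 0.496 FPKM (n = 6) in Tender loins.

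The transcript levels of the members were also summed by complex. Subunits encoded in the mitochondrial genome are not among the members and are not in these sums. The summed level by shared introns was 2250 ± 465 FPKM (SD, n = 6) in Tough and 2261 ± 101 FPKM (n = 6) in Tender loins for complex IV, 2530 ± 520 and 2671 ± 369 FPKM for the ATP synthase and 292.5 ± 59.5 and 332.7 ± 69.3 FPKM for the 2 members of complex III. The ranges overlapped in each complex, and the summed level of complex IV ran from 1804 to 3004 FPKM in Tough and from 2160 to 2384 FPKM in Tender libraries. With the companions, complex III had 924.6 ± 197 and 1016 ± 124 FPKM, and complex IV 3226 ± 672 and 3257 ± 135 FPKM. All 8 genes of complex III and 10 of 15 of complex IV had a log2 fold change below 0, against 60.7% of all genes tested. The differences between these sums were not tested.

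For 7 alternative genes the share of a gene in the sum of its family could be set between the groups, which does not depend on how a library is scaled. For subunits VIa, VIIa and VIII the muscle form prevailed in every library. *COX8H* made up 95.3 ± 1.31% (SD, n = 6) of the sum of *COX8H* and *COX8A* in Tough and 94.6 ± 1.18% (n = 6) in Tender loins, and *COX6A2* made up 84.4 ± 3.97% and 85.7 ± 2.36% of *COX6A1* and *COX6A2*. By shared introns *COX7A1* made up 89.8 ± 2.22% and 89.5 ± 3.78% of *COX7A1* and *COX7A2*. The size of these shares depends on the annotated exonic length that divides each level. It is 3365 bases for *COX6A2* and 554 for *COX6A1*, 328 for *COX7A1* and 472 for *COX7A2*, and 334 for *COX8H* and 559 for *COX8A*. *COX4I2*, which is known as the form of lung and other tissues, made up 0.941 ± 0.347% and 0.857 ± 0.228% of *COX4I1* and *COX4I2*. The level of the companion *COX6A2* had a log2 fold change of -0.36 by shared introns (standard error 0.23, 95% interval from -0.87 to 0.14), outside the range of the members. The companions *COX4I1*, *COX4I2*, *COX5A*, *COX7A2L*, *COX7B* and *COX8A* had -0.09, 0.03, 0.03, -0.04, 0.04 and -0.11. *COX6B2*, *COX7B2* and *COX8C*, known from testis, were listed at 0 in all 12 libraries.

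In the c subunit family *ATP5G1* and *ATP5G3* had nearly equal levels per exonic length and *ATP5G2* the lowest. The exonic length that divides the level is 893 bases for *ATP5G1*, 697 for *ATP5G3* and 4478 for *ATP5G2*. The order of these genes and the size of their shares thus depend on the annotated length. *ATP5G1* had 300, 158, 171, 203, 153 and 117 FPKM in Tough 1 to Tough 6 and 161, 139, 168, 178, 228 and 212 FPKM in Tender 1 to Tender 6. *ATP5G3* had 271, 143, 167, 157, 151 and 131 FPKM in Tough and 166, 118, 164, 203, 221 and 197 FPKM in Tender libraries. Both were highest in Tough 1, and their groups overlapped. *ATP5G2* had 41.0, 31.8, 24.9, 36.2, 33.1 and 30.4 FPKM in Tough and 31.7, 33.6, 33.9, 29.7, 34.4 and 31.3 FPKM in Tender libraries, a narrower range than the other two. The shares were 47.0 ± 3.16% and 46.2 ± 1.85% for *ATP5G1*, 44.2 ± 2.63% and 45.3 ± 2.83% for *ATP5G3* and 8.84 ± 1.70% and 8.52 ± 1.76% for *ATP5G2*. Over the 12 libraries the share of *ATP5G1* ran from 41.9% to 51.2%, that of *ATP5G3* from 39.7% to 49.5% and that of *ATP5G2* from 6.70% to 11.6%.

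None of these shares differed between the groups beyond the spread between animals. With transcripts assigned by exonic bases only the shares of *COX6A2* and *COX8H* had values in all libraries, and the two-sided exact permutation test over all regroupings of the 12 libraries into 6 and 6 gave p = 0.485 and 0.366, both 0.485 after adjustment over the 2 shares. By shared introns the exact permutation p of the 7 shares lay between 0.366 (*COX8H*) and 0.868 (*COX7A1*), and all 7 were 0.868 after adjustment. The differences, Tough minus Tender, ran from -1.35 percentage points (*COX6A2*) to 0.828 points (*ATP5G1*).

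**Figure D3:**
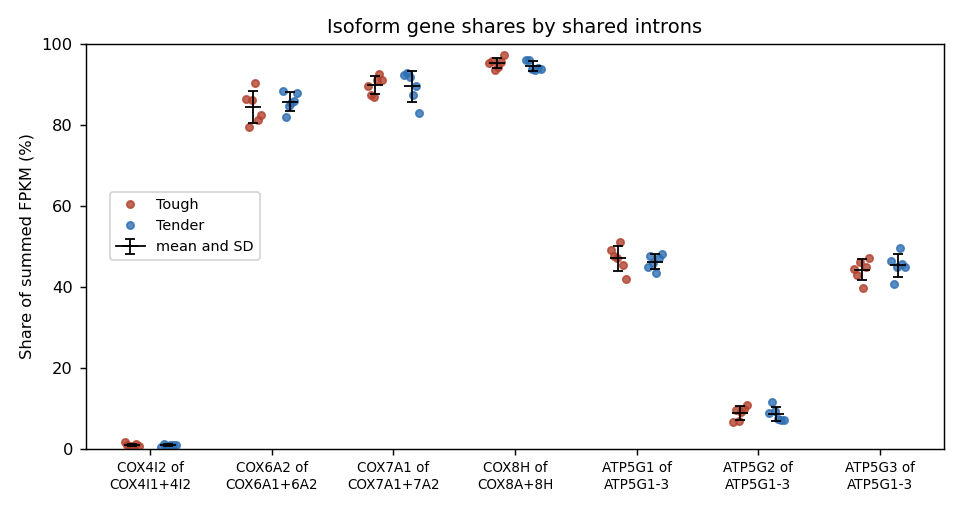
Share (%) of each gene in the summed FPKM of its family by shared introns, with 1 point per library and the mean and SD of the 6 Tough and 6 Tender libraries. *COX8H*, *COX7A1* and *COX6A2* make up at least 79.5% of their pairs in each library, and the group means of the 7 shares differ by at most 1.35 percentage points.

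The members varied more between animals than between groups. For each member the deviation of a library from the mean log2 level of the gene over the 12 libraries was taken, and the median over the 28 members was highest in Tough 1, at 0.40, and lowest in Tough 6, at -0.36. Both extremes thus belong to the Tough group. Tough 1 held the highest value of 16 of the 28 members and Tough 6 the lowest of 12, while Tender 2 held the lowest of 7 and Tender 4 the highest of 5. The Tender medians were -0.03, -0.20, -0.02, 0.29, 0.19 and 0.18 from Tender 1 to Tender 6. The median over all genes tested was 0.13 in Tough 1, -0.20 in Tough 6 and 0.28 in Tender 4. In Tender 4 the members thus lay where all genes lay, whereas in Tough 1 they lay above them.

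Complex I, which feeds electrons into the same chain, followed the same order at both ends. The median deviation of its 39 tested genes was 0.40 in Tough 1 and -0.25 in Tough 6, but 0.06 in Tender 4, where the members had 0.29. Between groups its 39 genes also gave no call and none at an unadjusted p of 0.05 by shared introns, 11 of 39 had a log2 fold change above 0, and the median was -0.06, beside 8 of 28 and -0.10 for the members. The difference between complex I and the members was not tested.

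**Figure D4:**
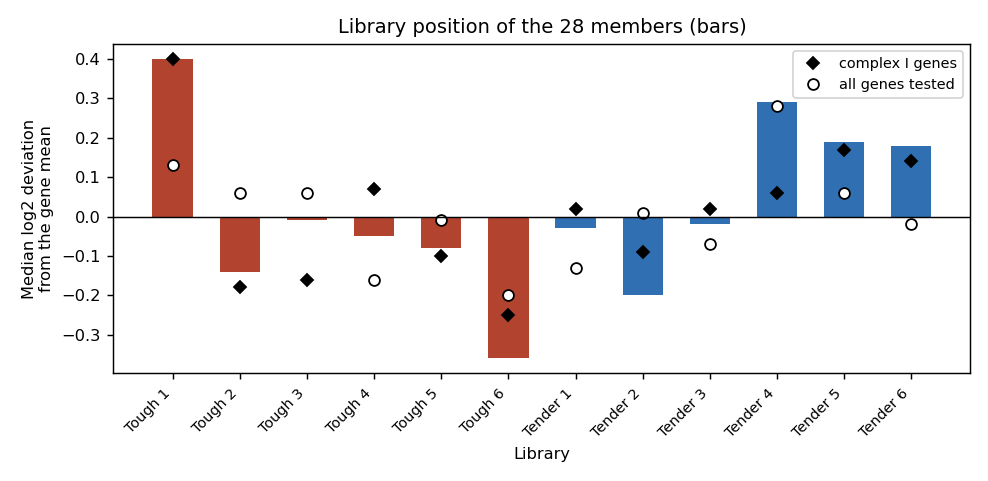
Median log2 deviation of the 28 members from their mean over the 12 libraries (bars, Tough in red and Tender in blue), with the median of 39 complex I genes (diamonds) and of all 9339 genes tested (circles). Tough 1 (0.40) and Tough 6 (-0.36) are the extremes of the members, and the Tender libraries lie between -0.20 and 0.29.

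The position of a library also depended on the base composition of the gene. Exonic GC content ran from 38.1% (*ATP5S*) to 61.4% (*COX8H*) over the members, 7 of which lay under 45% and 15 at 50% or more. The contrast is visible in the coding sequences of 2 subunits of complex IV of similar length, *COX8H* (chr2:69199-70730, minus strand, 213 bases, 63.8% GC) and *COX6C* (chr4:37074619-37089364, plus strand, 228 bases, 43.4% GC), given 5′ to 3′ with G and C in capitals.
COX8H: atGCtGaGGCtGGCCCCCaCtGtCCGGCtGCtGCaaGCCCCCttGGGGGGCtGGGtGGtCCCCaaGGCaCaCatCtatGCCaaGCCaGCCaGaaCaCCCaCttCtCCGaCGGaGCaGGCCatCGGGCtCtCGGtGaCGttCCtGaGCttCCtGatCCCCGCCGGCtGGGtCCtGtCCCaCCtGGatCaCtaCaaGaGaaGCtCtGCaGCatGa
COX6C: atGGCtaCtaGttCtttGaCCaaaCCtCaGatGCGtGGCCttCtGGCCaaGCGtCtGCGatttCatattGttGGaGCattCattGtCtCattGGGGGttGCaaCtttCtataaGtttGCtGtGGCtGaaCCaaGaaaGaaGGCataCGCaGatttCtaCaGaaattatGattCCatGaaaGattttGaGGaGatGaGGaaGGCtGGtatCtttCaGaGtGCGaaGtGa
In Tender 4 *COX6C* was at 334 FPKM, its highest value, while *COX8H* was at 708 FPKM, close to its lowest. In Tender 3 *COX6C* was at its lowest, 144 FPKM, and *COX8H* at 865 FPKM, near its mean of 884 FPKM. In Tough 1 both were above their means, *COX8H* at its highest, 1210 FPKM, and *COX6C* at 238 FPKM.

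Over the 28 members of a library, Spearman's rho between GC content and the log2 deviation ran from -0.51 (Tough 3) to 0.58 (Tough 4), and over all 9339 genes tested from -0.55 (Tough 3) to 0.51 (Tender 2). In 11 of the 12 libraries both had the same sign. These are correlations across genes within a library, which are not independent replicates, and are given as a description. Libraries with positive and negative values occurred in both groups. When the GC trend of each library was removed with a spline over all genes, the 28 log2 fold changes lay between -0.17 and 0.17 with a median of -0.04 against 0.00 over all genes, and the smallest unadjusted p of a member was 0.157.

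**Figure D5:**
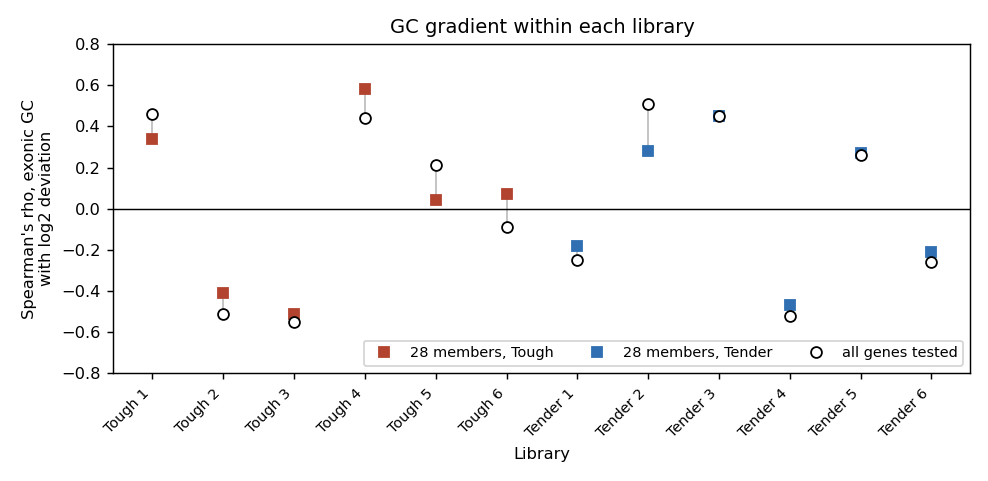
Spearman's rho between exonic GC content and the log2 deviation from the gene mean in each library, for the 28 members (squares) and for all 9339 genes tested (circles). The values of the members run from -0.51 in Tough 3 to 0.58 in Tough 4 and lie on the same side of 0 as those of all genes in 11 of 12 libraries.

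The promoters of the members were searched for 6 short motifs from 250 bases before to 50 bases after the annotated start, on both strands, and the same was done for 19558 protein-coding genes. AAGGTCA, the element bound by oestrogen-related receptors, which are known regulators of mitochondrial genes, lay in 8 of 28 member promoters (*COX6C*, *COX7C*, *COX8H*, *ATP5A1*, *ATP5E*, *ATP5G1*, *ATP5G3* and *ATP5I*), against 3.78% of all promoters, 3.44% of those of the genes tested and 2 of 39 of complex I. The core motifs CCGGAAG (ETS factors and GABP), GCGCATGC (nuclear respiratory factor 1) and AAGATGGC (YY1) lay in 9, 2 and 2 member promoters, against 17.5%, 4.69% and 3.94% of the promoters of genes tested. In complex I these motifs lay in 7, 8 and 5 of 39 promoters. GGGCGG (the GC box) lay in 15 member promoters, against 65.4% of those of genes tested, and CCAAT in 11, against 36.2%. In complex I GGGCGG lay in 28 and CCAAT in 12 of 39 promoters. Each motif was counted on its own, so matches of different motifs may overlap, and a match describes the sequence and is no evidence of binding.

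The promoters of *COX8H* (chr2:70711-70980, minus strand) and *ATP5A1* (chr1:95750816-95751085, minus strand), 2 abundant members with AAGGTCA, are printed from 250 bases before to 20 bases after the annotated start, 5′ to 3′ on the strand of the gene, with the motif or its reverse complement in capitals.
COX8H promoter: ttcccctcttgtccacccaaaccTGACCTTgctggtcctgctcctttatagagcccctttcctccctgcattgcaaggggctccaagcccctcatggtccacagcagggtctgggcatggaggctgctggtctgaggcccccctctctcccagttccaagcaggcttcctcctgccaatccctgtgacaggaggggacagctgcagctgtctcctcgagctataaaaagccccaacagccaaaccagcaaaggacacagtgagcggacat
ATP5A1 promoter: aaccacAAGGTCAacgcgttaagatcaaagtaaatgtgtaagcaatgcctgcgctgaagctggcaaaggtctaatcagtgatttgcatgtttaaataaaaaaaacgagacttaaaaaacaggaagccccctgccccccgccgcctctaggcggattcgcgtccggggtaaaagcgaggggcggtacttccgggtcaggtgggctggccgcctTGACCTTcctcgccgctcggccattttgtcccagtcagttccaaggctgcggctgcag
The 8 members with this motif ran from 46.0 to 884 FPKM in mean level, their median log2 difference between Tough and Tender loins was -0.04, and that of the other members was -0.11. The difference between these medians was not tested.

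Genes that work with the members were followed in lists, by shared introns. *ATPIF1*, the inhibitor that binds the F1 head when ATP synthase runs in reverse, had 209 ± 30.9 FPKM (n = 6) in Tough and 166 ± 37.1 FPKM (n = 6) in Tender loins (log2 fold change 0.35, standard error 0.16, adjusted p = 1.0 in limma, not called). It was the 1 of 5 genes of ATP synthase assembly and inhibition that reached an unadjusted p of 0.05, which it did not with transcripts assigned by exonic bases. *TTC19*, a complex III assembly factor, had means of 4.87 and 2.84 FPKM and also reached that threshold (log2 fold change 0.67, adjusted p = 1.0 in limma), but its log2 fold change was -0.59 by exonic bases. None of 4 tested complex II genes, 6 complex IV assembly genes and 13 citric acid cycle genes reached an unadjusted p of 0.05, nor did any of 7 genes of outer membrane proteins and carriers.

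*PPARGC1A*, a coactivator known to raise the expression of mitochondrial genes, had 0.949 ± 0.378 FPKM (n = 6) in Tough and 2.01 ± 1.27 FPKM (n = 6) in Tender loins (log2 fold change -0.69, standard error 0.29, adjusted p = 1.0 in limma). *PPARA*, a lipid-sensing receptor, had means of 23.9 and 42.2 FPKM (log2 fold change -0.91, standard error 0.36, adjusted p = 1.0 in limma). They were the 2 of 9 tested regulators at an unadjusted p of 0.05, both higher in the Tender group, and neither was called. By exonic bases *PPARA* did not pass the filter on low levels, and *PPARGC1A* was the 1 of 7 tested regulators at that threshold. The paper, by Cuffdiff and with an additional animal, reports *PPARGC1A* as differentially expressed and higher in the Tender group.

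Genes of the fibre types were set beside the members. All 10 genes of slow oxidative fibres had a log2 fold change below 0, against 60.7% of all genes tested, with a median of -0.43. An unadjusted p of 0.05 was reached by 4 of 10 (3 of 10 by exonic bases), against 2.54% (2.48%) of all genes tested. The smallest was that of *MYL2* (slow regulatory light chain, 1500 ± 450 FPKM in Tough and 2570 ± 810 FPKM in Tender loins, n = 6 each, adjusted p = 1.0 in limma). This list was chosen with earlier results of these data known. It includes *CASQ2*, which the paper reports as higher in the Tender group. All 11 tested genes of fast glycolytic fibres had a log2 fold change above 0, against 39.3% of all genes tested, with a median of 0.17. By exonic bases 10 of the 11 had one above 0, against 39.9%. Under neither assignment did any of them reach an unadjusted p of 0.05. The fast myosin heavy chain genes *MYH1*, *MYH2* and *MYH4*, also on this list, were listed at 0 in all libraries and not tested. As with *UQCR11*, a listing at 0 under these assignments need not mean that a gene is silent. No gene of either list was called, and the difference between these lists and the members was not tested.

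Markers of other cell types were summed beside the members. Of 3 red blood cell markers 2 were tested, with *SLC4A1* listed at 0 in all libraries, and their summed level was 124 to 206 FPKM in Tough and 238 to 351 FPKM in Tender libraries, without overlap. *HBB* (beta globin) had 164 ± 31.9 and 294 ± 47.5 FPKM (n = 6 each, log2 fold change -0.85, adjusted p = 0.531 in limma). The summed levels of 6 endothelial markers (16.3 to 34.1 and 26.3 to 42.0 FPKM), 5 macrophage markers (8.77 to 32.2 and 10.1 to 62.7 FPKM), 6 fibroblast markers (69.4 to 210 and 67.4 to 156 FPKM), 5 adipocyte markers (54.2 to 122 and 59.0 to 105 FPKM) and 4 smooth muscle markers (25.9 to 68.1 and 27.0 to 38.9 FPKM) overlapped between Tough and Tender libraries. Their part in the levels of the members was not tested.

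The ribosomal genes gave a further reference for the direction of small differences. Of 72 mitochondrial ribosomal genes 7 had a log2 fold change above 0, with a median of -0.11, and of 83 cytosolic ribosomal genes 14, with a median of -0.13. The median of the members, -0.10, lay beside these and beside the citric acid cycle genes at -0.08. Dividing each library by a median-of-ratios size factor moved the median of the members to -0.05 and that of all genes to 0.00 by shared introns, and 10 of 28 members then lay above 0.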

How the data were processed

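RNA of 12 loin samples was sequenced as paired reads of 76 bases. Per the labels and the methods of the study, the authors checked and trimmed the reads with FastQC and Trim Galore, aligned each library to Sscrofa11.1 using TopHat2 2.1.0, and built its transcripts using Cufflinks 2.2.1, and the deposited files hold an FPKM for each of 25798 to 31353 assembled transcripts per library, without read counts.

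Transcripts were matched to NCBI annotation Release 106 and given to the gene holding at least 50% of their exonic bases, in either strand where none was assigned (16.8% to 27.8% of transcripts), which placed 67.7% to 78.9% of them. Per gene, FPKM times transcript length was summed and divided by the exonic length of the gene. Because 6 members were then listed at 0 in some libraries, assignment by shared introns was added after the data were seen, as were its versions with median-of-ratios scaling and with the GC trend removed (natural spline, 5 degrees of freedom), and the companions, chosen by product name. The members and lists were chosen with earlier results of these data known.

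Genes with a mean above 0.5 FPKM were compared on log2(FPKM + 0.5) with limma 3.58.1 (trended variance, R 4.3.3) and Benjamini-Hochberg adjustment over all genes tested, so fold changes of low genes are understated. Log2 fold changes are Tough minus Tender. Shares were compared by exact permutation tests (scipy 1.17.1). The fit and the permutation test were tested on simulated data. Values in every library were given for the 5 members of smallest p in each direction, the members of isoform pairs and of the c subunit, and the most abundant member of each complex, and up to 3 genes per list were eligible for naming, except that all myofibre markers were named. No libraries were alike enough to be the same sample (highest correlation 0.8998). Library depth is unknown from these files. Alternatives changed the pseudocount, filter, scaling, assignment rule, variance model and library set, one at a time, except that the scaling and the GC trend removal named above were applied together with the assignment by shared introns.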

Additional observations from a re-analysis of the deposited data

Results flagged for a closer look

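In 4 of the 70 groups of 6 values that were examined (the 28 members in each group, and the shares), 1 library lay apart from the others by Dixon's criterion, which chance meets in about 1 of 20 groups. *ATP5C1* was 99.3 FPKM in Tough 1, against 58.8 to 73.8 FPKM in the other Tough libraries. *ATP5G3* was 271 FPKM in Tough 1, against 131 to 167 FPKM by shared introns. *ATP5S* was 3.06 FPKM in Tender 4, against 1.69 to 2.17 FPKM. *ATP5SL* was 5.11 FPKM in Tender 1, against 18.9 to 22.8 FPKM in the other Tender libraries.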

How the results depend on the processing

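No gene was called under any of the 28 alternatives, and the median log2 fold change of the members stayed between -0.18 (array weights) and 0.00 (quantile normalization), with -0.17 to -0.03 when 1 library was left out. The number of members at an unadjusted p of 0.05, 0 as reported, was 1 with a 90% rule for exonic bases (25 members tested), with the plain sum, with array weights and with the replicate block (*COX7C* each time), and 1 by the exact Wilcoxon test (*ATP5SL*). Leaving out 1 library gave 0 to 2: *UQCR10* and *ATP5C1* without Tough 1, and *COX7C* without Tough 4, Tough 6 or Tender 2. Direction turned for *COX6B* (0.048 with quantile normalization), *ATP5G2* (-0.10 per exon base, -1.40 with the 90% rule, -0.041 with array weights), *COX8H* (-1.63 with the 90% rule), *ATP5B* (-0.04 with the plain sum, -0.033 with array weights), *ATP5G1* (-0.022 by shared introns) and *COX7A1* (-0.041 with the 90% rule, -0.19 by shared introns, -0.14 with median-of-ratios scaling added, -0.13 with the GC trend removed). Leaving out 1 library moved *ATP5B* between -0.095 and 0.094, *ATP5G1* between -0.04 and 1.73, *ATP5G2* between -0.059 and 0.082 and *ATP5I* between -0.058 and 0.146. Without a change of sign, *UQCR10* moved from -0.23 to -1.68, *COX7A2* from -0.20 to -1.22 (both with the 90% rule) and *ATP5G3* from -1.42 to -0.017 (without Tough 6). Apart from the assignment rule, the cause was not tested. Of all genes at an unadjusted p of 0.05, 67 of 226 were higher in Tough loins, 137 of 280 with median-of-ratios scaling, 142 of 291 with quantile normalization, 281 of 656 with array weights and 66 of 177 with the replicate block. Equal replicate numbers in the groups showed no pairing (correlations of deviations from -0.225 to 0.0207).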

Other observations

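Within each group the level of the members was set against shear force, 56 relations in all over 6 animals each, by shared introns. In the Tough group Pearson's r was positive for 26 of 28 members, with a median of 0.68, and over all genes the median was 0.22 and 64.3% were positive. In the Tender group it was positive for 19 of 28, with a median of 0.33, against -0.10 and 41.1% over all genes. Without the 2 animals farthest from the median shear force of their group, r was positive for 15 of 28 members in the Tough group (median 0.14, all genes -0.29) and for 5 of 28 in the Tender group (median -0.51, all genes -0.54). Most members of the Tender group thus did not keep a positive sign, and the median over all genes also fell in both groups. With fewer animals and a narrower range of shear force, these values are a description only. *ATP5D* in the Tough group had the highest r, 0.91 (exact permutation p = 0.00972), with a Spearman's rho of 0.94 (exact permutation p = 0.0167), and r was 0.87 without those 2 animals. *ATP5O* had r = 0.81 in the Tough group and 0.15 without them. No relation passed adjustment over the 56, the smallest adjusted p being 0.233 for r and 0.234 for rho (exact permutation tests). The members share the libraries, and Tough 1, the library with their highest levels, was also the toughest, at 10.63 kg/cm2.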
